A study of Mus musculus with 24 samples.

Results

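The mouse glutathione transferases and antioxidant enzymes form a list of 38 genes, chosen by symbol, and 38 of 38 were present in the deposited tables of 21441 genes. The list holds 20 transferase genes: 2 of the pi class (Gstp1, Gstp2), 6 of the mu class (Gstm1 to Gstm6), 3 of the alpha class (Gsta2, Gsta3, Gsta4), 3 of the theta class (Gstt1, Gstt2, Gstt3), Gsto1, Gstk1 and Gstz1, and the microsomal Mgst1, Mgst2 and Mgst3. The other 18 are glutathione enzymes (Gclc, Gclm, Gss, Gsr), peroxidases and their partners (Gpx1, Gpx2, Gpx3, Gpx4, Prdx1, Srxn1, Txnrd1), Cat, the superoxide dismutases Sod1, Sod2 and Sod3, Nqo1, Hmox1 and the transcription factor gene Nfe2l2. RNA of duodenum, ileum and colon came from wild-type C57BL6J mice. The treated group, labelled 3xD, had 4 libraries per tissue from mice that got 1,25D3 (calcitriol, the active form of vitamin D) at 1 ng per g body weight, 48, 24 and 6 h before the end. The group labelled minusD had 4 libraries in the duodenum and colon and 3 in the ileum. The labels give 2 females of 4 and ages of 10 to 14 for 3xD, and 1 female of 4 and ages of 10 to 13 for minusD, with no unit for age and no tie to a library. One column of the minusD group is named minusD5718 and the others Vehicle 1, Vehicle 2 and Vehicle 3. All of these are called deficient here, and the sources used here do not say what the Vehicle mice received. Values are listed below for 3xD 1, 3xD5711, 3xD5720 and 3xD5734 in that order, and for minusD5718, Vehicle 1, Vehicle 2 and Vehicle 3 in that order, with minusD5718 missing from the ileum.

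Glutathione is a small thiol that cells make from amino acids and use both to reduce peroxides and to tag reactive foreign molecules. Glutathione transferases join it to electrophiles from food, bile and bacteria, so that the products can be exported, and the gut lining is one of their main sites. Superoxide dismutases turn superoxide into hydrogen peroxide, which catalase, glutathione peroxidases and peroxiredoxins remove. Many genes of both groups are targets of NRF2, the protein of Nfe2l2, which binds antioxidant response elements in their promoters.

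Gata4, Fabp6 and Hoxb13 followed the tissue labels. Gata4 lay at 26.5 to 36.6 FPKM in the duodenum and at 0.173 to 6.00 FPKM elsewhere. Fabp6 lay at 1985 to 10714 FPKM in the ileum, 0.926 to 281 FPKM in the duodenum and 28.4 to 266 FPKM in the colon. Hoxb13 lay at 90.8 to 239 FPKM in the colon against at most 1.1 FPKM elsewhere. Some other region markers were less exclusive. The ileum marker Slc10a2 was at 18.1 to 87.3 FPKM in the colon, against 123 to 397 FPKM in the ileum. Of the colon markers, Car1 reached 58.4 FPKM in the duodenum (1586 to 8243 FPKM in the colon), and Saa3 reached 527 FPKM in the ileum (20.2 to 120 FPKM in the colon). FPKM is a read count divided by transcript length and library size. Cyp24a1, the calcitriol-degrading enzyme gene that the vitamin D receptor induces, was at 2.67 to 640.5 FPKM in the 3xD libraries and at most 0.418 FPKM in the deficient ones. Libraries with 4-digit numbers held 12263772 to 15277937 recovered reads and the serially numbered ones 18865251 to 31109914. This depth split nearly coincided with treatment, since 3 of 4 3xD libraries and 1 of 4 deficient libraries (none of 3 in the ileum) carried 4-digit numbers. Within the duodenum, summed stomach markers were at 6222 to 12328 FPKM in the 4-digit libraries and at 39.4 to 214 FPKM in the serial ones, and exocrine pancreas markers ranged from 721 to 46778 FPKM over all 8. Library 3xD5720 stood apart in the ileum, with summed enterocyte markers at 4356 FPKM against 10508 to 17813 FPKM in the 6 others, and in the colon, with pancreas markers at 21532 FPKM against 136 to 4693 FPKM in the 7 others. In these bulk tissues fewer cells of a type and less RNA per cell cannot be told apart.

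The pi class genes lie next to each other on chromosome 19, Gstp1 at chr19:4035411-4037921 and Gstp2 at chr19:4040291-4042221 on the minus strand (NCBIM37, the assembly of mm9). Gstp1 had the smallest treatment p of the list, and the promoters of the pair are shown for that reason. Promoter windows run from 250 bases before to 50 after a gene's start (RefSeq, GRCm38.p6) and were found for 32 of the 38 genes. A gene can have several starts, with 44 windows for the 32 members and 32851 for all 27025 genes. It counts below as holding a motif if any of its windows does, so genes with more windows have more chances to match. Capitals mark TGANTCAGC or TGACNNNGC, searched on both strands. TGACNNNGC is the core of the antioxidant response element. Prdx1, Gclm and Srxn1 are shown beside them as members with the core. The whole windows are printed for Gstp1, chr19:4037863-4038162, and Gstp2, chr19:4042172-4042471, both on the minus strand. For the other genes only the stretch of the window around the matches is printed, for Prdx1 at chr4:116685441-116685500, Gclm at chr3:122245398-122245457 and Srxn1 at chr2:152105454-152105573 on the plus strand.
Gstp1: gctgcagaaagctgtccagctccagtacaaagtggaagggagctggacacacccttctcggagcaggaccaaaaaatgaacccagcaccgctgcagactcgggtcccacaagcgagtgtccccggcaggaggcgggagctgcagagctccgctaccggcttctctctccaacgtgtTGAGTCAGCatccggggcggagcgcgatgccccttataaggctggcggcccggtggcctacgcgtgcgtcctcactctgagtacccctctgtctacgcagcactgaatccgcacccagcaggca
Gstp2: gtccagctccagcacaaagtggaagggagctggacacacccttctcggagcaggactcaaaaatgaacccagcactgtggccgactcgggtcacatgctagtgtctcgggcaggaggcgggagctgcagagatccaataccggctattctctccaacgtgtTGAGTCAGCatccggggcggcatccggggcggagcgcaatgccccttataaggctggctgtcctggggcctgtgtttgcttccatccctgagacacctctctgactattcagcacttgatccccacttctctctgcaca
Prdx1: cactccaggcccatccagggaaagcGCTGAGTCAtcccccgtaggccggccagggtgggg
Gclm: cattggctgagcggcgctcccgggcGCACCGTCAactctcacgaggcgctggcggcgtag
Srxn1: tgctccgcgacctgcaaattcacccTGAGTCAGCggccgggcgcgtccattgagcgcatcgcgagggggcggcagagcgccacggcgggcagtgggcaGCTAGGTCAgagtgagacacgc
The Gstp1 and Gstp2 windows matched in 245 of 317 columns of a global alignment (77.3%), and both hold TGANTCAGC, with its first base at position -74 in Gstp1 and -89 in Gstp2. TGANTCAGC occurs in 4 of the 32 genes with a window (Gstp1, Gstp2, Prdx1, Srxn1), against 1.37% of all 27025 genes with one. TGACNNNGC occurs in 9 of the 32 (Gsta3, Gstm5, Mgst1, Prdx1, Srxn1, Txnrd1, Sod1, Gclm, Nfe2l2), 28.1%, against 14.0% of all genes. The motifs overlap where the fourth base of TGANTCAGC is C, as on the minus strand of Prdx1, and TGANTCAGC was added after the Gstp windows had been read. A match is a run of letters and not a binding site.

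No member passed the treatment test in any tissue. limma was fitted to log2(FPKM + 1) of every gene that reached 1 FPKM in 3 or more libraries of the tissue, with Benjamini-Hochberg adjustment over all of them and a threshold of 0.05. In the duodenum 0 of 38 members were called, beside 0.0256% of 11734 genes, and the smallest adjusted p was 0.499. In the ileum 0 of 37 were called, beside 0% of 12149 genes, with 0.706 as the smallest adjusted p. Gsta2 fell under the filter there, being listed at 0 in most libraries. In the colon 0 of 38 were called, beside 0% of 12746 genes, with 0.648 as the smallest adjusted p. At an unadjusted p under 0.05 stood 3 members in the duodenum (2 higher in 3xD, 1 lower), 2 in the ileum and 4 in the colon (all higher), where 9.4%, 5.84% and 5.85% of all genes did. In the order duodenum, ileum, colon, differences (3xD minus deficient) were positive for 25, 21 and 27 members and negative for 13, 16 and 11. Over all genes 51.9%, 51.7% and 47.3% were positive. The members' medians were 0.15, 0.05 and 0.14 on the log2 scale, beside 0.01, 0.01 and -0.01 over all genes. Some single 3xD libraries were often the highest. In the duodenum 3xD5734 was so for 13 members (17.6% of all genes), and in the ileum for 10 (11.1%). In the colon 3xD 1 was so for 19 (25.4%). Its summed FPKM was 775830, where the other colon libraries had 588570 to 703759. The part of single libraries in these medians and signs was not tested.

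**Figure D1:**
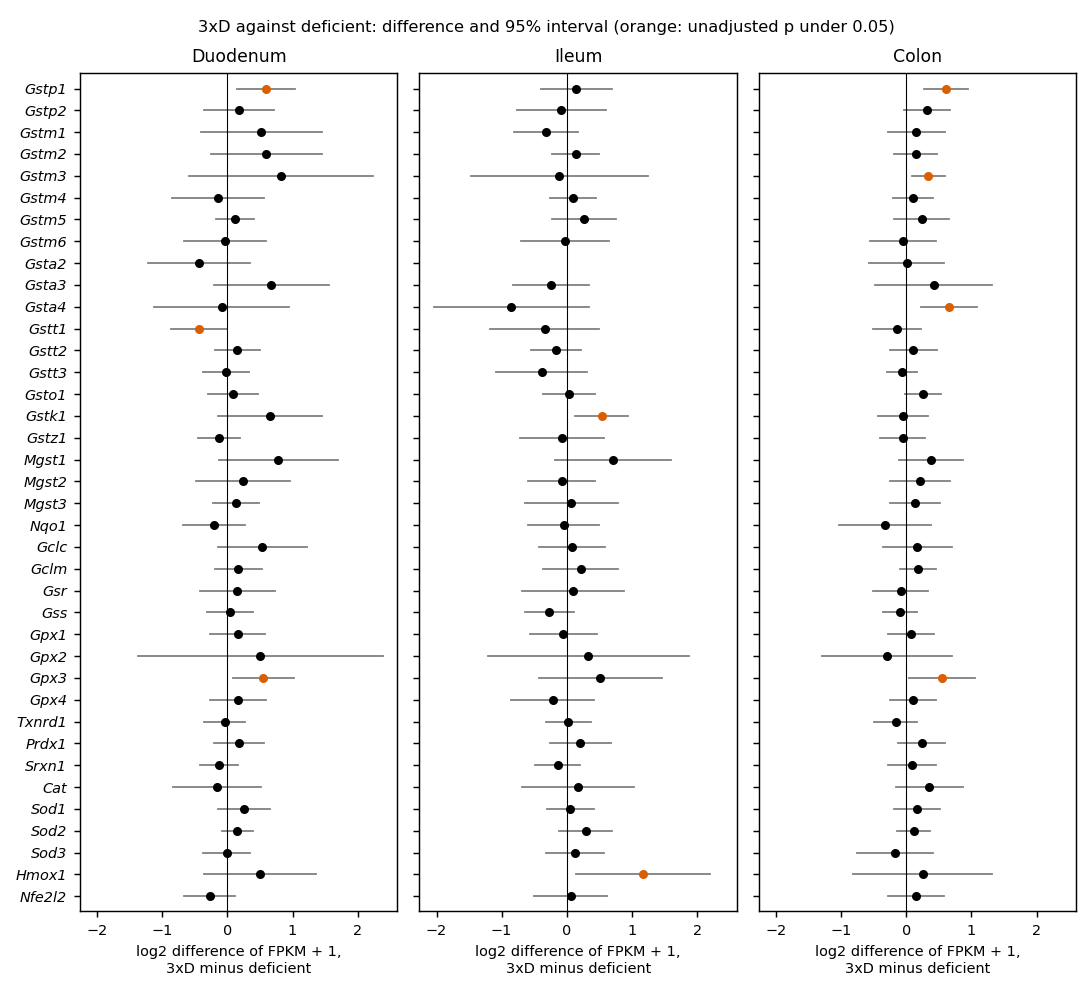
Difference in log2(FPKM + 1) between 3xD and deficient mice for each member in the duodenum, ileum and colon, with the 95% interval as a line. Orange points have an unadjusted p under 0.05, and 0 members passed the adjusted threshold. Gsta2 has no ileum value.

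Gstp1, the main pi class transferase of epithelia, came closest to the threshold. In the duodenum its level was 737, 699.8, 652 and 1068 FPKM in 3xD mice, against 574, 408, 579 and 509.8 FPKM in deficient mice. Every 3xD library lay above every deficient one. The log2 difference was 0.59 ± 0.20 (SE; limma adjusted p = 0.499). It was 0.58 among the serial libraries and 0.45 among the 4-digit ones. 3xD 1 was the only serial 3xD library, and minusD5718 the only 4-digit deficient one. Each difference within a numbering, here and below, therefore rests on a single library of a group and has no spread for it. In the colon Gstp1 stood at 927, 686, 627 and 637 FPKM in 3xD mice, against 431, 485, 469.9 and 477 FPKM in deficient mice. Those groups did not overlap either. The difference was 0.61 ± 0.15 (SE; limma adjusted p = 0.648), and 0.96 and 0.59 within the serial and 4-digit libraries. In the ileum the groups overlapped, at 541, 527, 308 and 451 FPKM in 3xD mice, against 343, 488 and 389 FPKM in deficient mice. The counts behind these values were between 2528 and 13885 recovered reads per library.

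Gstp2, its neighbour, was lower throughout, at 157 to 299 FPKM in 3xD duodenum and 155 to 259 FPKM in deficient duodenum. Its colon values were 275, 208, 188 and 208 FPKM in 3xD mice, against 176, 212, 152 and 163 FPKM in deficient mice. The groups overlapped, with a log2 difference of 0.32 ± 0.16 (SE; limma adjusted p = 0.863) that was 0.66 within the serial libraries and 0.19 within the 4-digit ones. Of the 704 distinct 50-base words in annotated Gstp1 transcripts, 475 (67.5%) also occur in Gstp2, so how reads were divided between the pair is uncertain.

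**Figure D2:**
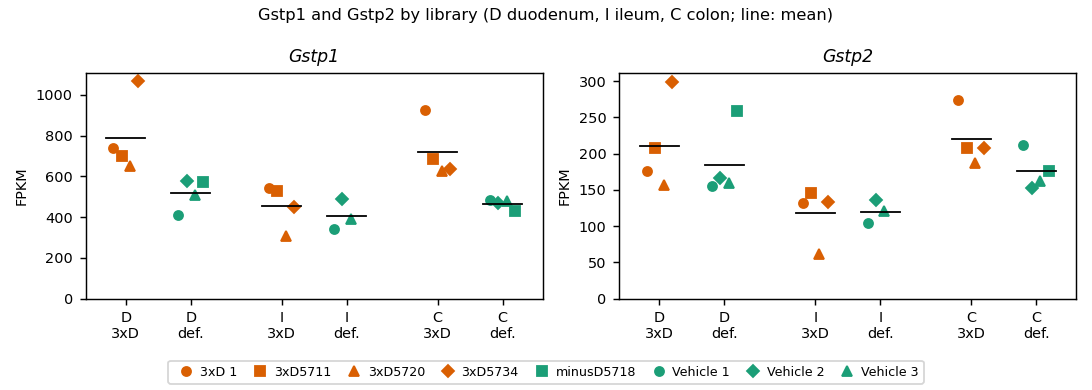
FPKM of Gstp1 and Gstp2 in each library, by region and group, with 3xD in orange left of deficient in green and the mean as a line. In the duodenum and colon the 3xD points of Gstp1 all lie above the deficient ones, and in the ileum they overlap.

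Counted over the list, 3xD libraries lay wholly above the deficient ones for 1 member in the duodenum (Gstp1), 1 in the ileum (Gstk1) and 2 in the colon (Gstp1, Gstm3), beside 1.99%, 3.35% and 2.22% of all genes. They lay wholly below for 0 members in each tissue, beside 2.38%, 3.21% and 2.32%. Gstk1, a transferase of mitochondria and peroxisomes, was at 27.7, 28.7, 22.0 and 37.1 FPKM in 3xD ileum, against 17.6, 19.0 and 21.6 FPKM in deficient ileum. Its lowest 3xD library was close to the highest deficient one, and the log2 difference was 0.53 ± 0.18 (SE; limma adjusted p = 0.706). Gstm3, a mu class transferase, was at 40.6, 36.2, 32.4 and 33.5 FPKM in 3xD colon, against 27.3, 30.9, 25.5 and 28.3 FPKM in deficient colon. Its difference of 0.34 ± 0.11 (SE; limma adjusted p = 0.824) was 0.21 after rescaling each library to the same sum, and 0.51 and 0.31 within the serial and 4-digit libraries.

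Gsta4, the alpha class enzyme for the lipid peroxidation product 4-hydroxynonenal, was at 114, 87.9, 84.4 and 81.9 FPKM in 3xD colon, against 55.1, 47.3, 51.1 and 82.6 FPKM in deficient colon. Vehicle 3 alone among the deficient libraries reached the 3xD range, and the log2 difference was 0.66 ± 0.19 (SE; limma adjusted p = 0.742). In the ileum the same gene gave 34.4, 27.9, 5.76 and 21.1 FPKM in 3xD mice, against 32.8, 43.5 and 29.1 FPKM in deficient mice. Gstt1, a theta class transferase, was the member with an unadjusted p under 0.05 in the downward direction. In the duodenum it stood at 101, 75.7, 64.2 and 86.7 FPKM in 3xD mice, against 132, 108, 124 and 80.9 FPKM in deficient mice. The groups overlapped, and the difference of -0.43 ± 0.19 (SE; limma adjusted p = 0.528) was -0.02 within the serial libraries and -0.81 within the 4-digit ones.

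Gpx3, the secreted glutathione peroxidase, had an unadjusted p under 0.05 in the duodenum and colon. Its duodenal values were 39.1, 77.1, 74.5 and 62.6 FPKM in 3xD mice, against 42.1, 42.5, 35.8 and 46.5 FPKM in deficient mice. The difference of 0.55 ± 0.21 (SE; limma adjusted p = 0.499) varied with the naming scheme: within the serial libraries it was -0.08, within the 4-digit ones 0.74, and with the naming scheme as a covariate 0.33. In the colon Gpx3 was at 58.2, 104, 96.8 and 51.7 FPKM in 3xD mice, against 48.8, 49.3, 51.0 and 52.8 FPKM in deficient mice. The difference of 0.55 ± 0.22 (SE; limma adjusted p = 0.846) was 0.19 within the serial libraries and 0.71 within the 4-digit ones. In the ileum it was at 36.8, 94.1, 116 and 37.7 FPKM in 3xD mice, against 45.1, 41.3 and 43.9 FPKM in deficient mice. Libraries 3xD5711 and 3xD5720 were the highest pair in all 3 tissues, while 3xD 1 and 3xD5734 were near the deficient range in the ileum and colon.

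Hmox1, the gene of inducible haem oxygenase, had the largest log2 difference of the list in the ileum. Its levels there were 2.92, 5.20, 13.0 and 11.7 FPKM in 3xD mice, against 3.88, 1.82 and 2.44 FPKM in deficient mice. The difference was 1.16 ± 0.45 (SE; limma adjusted p = 0.706), and 0.12 with the naming scheme as a covariate. All 3 deficient ileum libraries are serial, so the value of 0.12 sets 3xD 1 alone against them. Treatment and numbering cannot be told apart for the 4-digit 3xD libraries, which were the high ones. Mgst1, a membrane transferase that also reduces lipid peroxides, showed the same split: 328, 458, 1095 and 419 FPKM in 3xD ileum, against 343, 249 and 356 FPKM in deficient ileum. Its difference of 0.71 ± 0.39 (SE; limma adjusted p = 0.706) was 0.07 with that covariate, again from 3xD 1 alone, and 0.35 without 3xD5720.

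The core NRF2 genes did not pass the test in any tissue. Nfe2l2 itself averaged 146 ± 23.9 FPKM in 3xD duodenum and 178 ± 36.6 FPKM in deficient duodenum (SD, n = 4 each). It averaged 80.6 ± 22.2 FPKM in 3xD ileum (n = 4) and 74.6 ± 5.33 FPKM in deficient ileum (n = 3), and 131 ± 23.3 and 118 ± 27.9 FPKM in 3xD and deficient colon. Nqo1, the quinone reductase often read as an NRF2 reporter, averaged 21.4 ± 1.29 FPKM in 3xD duodenum and 25.9 ± 9.14 FPKM in deficient duodenum, where the log2 difference was -0.20 with a 95% interval of -0.69 to 0.28. Gclc, the catalytic subunit of the enzyme that starts glutathione synthesis, averaged 25.2 ± 8.19 FPKM in 3xD duodenum and 17.0 ± 5.09 FPKM in deficient duodenum (0.54, 95% interval -0.14 to 1.22). That difference was -0.10 within the serial libraries and 0.55 within the 4-digit ones. In the duodenum the sign also turned between the schemes for Nfe2l2 (0.09 and -0.75) and Nqo1 (0.09 and -0.83), with minusD5718 the only deficient 4-digit library. Gclm, the modifier subunit of the enzyme of Gclc, averaged 66.1 ± 9.64 FPKM in 3xD duodenum and 58.9 ± 10.5 FPKM in deficient duodenum. It was highest in 3xD5734 in all 3 tissues. Its duodenal log2 difference of 0.17 also turned sign, at 0.21 within the serial libraries and -0.10 within the 4-digit ones.

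The response to 1,25D3 was not shown to differ between regions for any member. In 1 fit of all 23 libraries 0 of 38 members were called for duodenum minus ileum, for duodenum minus colon and for ileum minus colon, beside 0% of 13390 genes each time. At an unadjusted p under 0.05 stood 0, 0 and 1 members, beside 4.53%, 1.96% and 3.38% of all genes. That member was Gsta4, whose response in the ileum was below that in the colon by -1.51 ± 0.65 on the log2 scale (SE; limma adjusted p = 0.971). The next were Gstk1 for duodenum minus colon, 0.71 ± 0.38, and Gstm1 for duodenum minus ileum, 0.84 ± 0.47 (SE; limma adjusted p = 1.00 and 0.865).

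Further genes of the same chemistry, listed beside the members, gave the same count. Of the 20 listed genes of the thioredoxin and peroxiredoxin system 18 were tested in each tissue and 0 passed, with medians of 0.13, 0.03 and 0.10 in the duodenum, ileum and colon. Prdx3, the mitochondrial peroxiredoxin, had that list's smallest p in the duodenum, at 92.5 ± 11.2 FPKM in 3xD and 74.8 FPKM on average in deficient mice. Glutathione supply and turnover (13, 14 and 16 of 17 tested, medians 0.06, -0.13 and 0.05) had 0 calls, led in the colon by Hagh, a glyoxalase, at 0.43 ± 0.12 (SE; limma adjusted p = 0.725). NADPH supply (8 of 9 tested, medians 0.20, -0.05 and -0.10) had 0 calls. G6pdx, the first enzyme of the pentose phosphate pathway, differed by -0.31 ± 0.10 in the duodenum (SE; limma adjusted p = 0.499). NRF2 control and further targets (24, 25 and 25 of 26 tested, medians 0.03, -0.21 and 0.01) had 0 calls. Bach1, a repressor at antioxidant response elements, differed by 0.48 ± 0.18 in the duodenum and 0.50 ± 0.18 in the ileum (SE; limma adjusted p = 0.499 and 0.706). Other glutathione transferases and peroxidases (9, 9 and 10 of 14 tested) and epithelial oxidant sources (5, 7 and 6 of 10 tested) had 0 calls. Their medians were -0.03, 0.16 and 0.10, and -0.13, 0.11 and 0.15. Noxo1, the organizer of the NADPH oxidase NOX1, was the oxidant source with the smallest p in the ileum, at 0.85 ± 0.19 (SE; limma adjusted p = 0.706).

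Several members stood at different levels along the gut. The regional comparison is a description with no test, because each region's table was scaled on its own. As deposited, the region median was highest in the duodenum for 16 members, in the ileum for 5 and in the colon for 17, and lowest in the ileum for 20. These counts include near ties, such as Sod1 at 695.5, 702.1 and 695.5 FPKM in duodenum, ileum and colon. The matching shares over all genes were not computed. Of 38 members, the deficient libraries of the duodenum lay wholly above those of the ileum for 18 and wholly below for 5, beside 9.94% and 24.3% of all genes. Duodenum lay above colon for 10 and below for 11, beside 11.2% and 47.2%. Ileum lay above colon for 5 and below for 20, beside 10.9% and 37.4%. The 3xD libraries gave 17 and 4 for duodenum against ileum (9.41% and 22.6% of all genes), 9 and 6 for duodenum against colon (10.1% and 39.3%), and 3 and 18 for ileum against colon (8.08% and 27.3%). On the deposited scale the median of all genes was shifted by -0.14, -0.41 and -0.28 (log2) in these 3 contrasts. With median-ratio factors, which bring those shifts to 0.02, -0.01 and -0.03, the deficient counts for duodenum against ileum were 20 above and 3 below, beside 16.3% and 14.4% of all genes. For duodenum against colon they were 21 and 3, beside 23.8% and 22.4%, and for ileum against colon 7 and 11, beside 18.6% and 19.5%. After rescaling each library to the same sum the 3 contrasts gave 19 and 5 (13.3% and 10.9% of all genes), 8 and 12 (9.45% and 50.7%), and 2 and 24 (6.1% and 53%). Under all 3 scalings 17 members stood above in duodenum against ileum and 3 below, beside 8.71% and 9.01% of all genes. In duodenum against colon 8 stood above and 3 below, beside 9.33% and 22.4%, and in ileum against colon 2 above and 11 below, beside 6.1% and 19.5%.

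**Figure D3:**
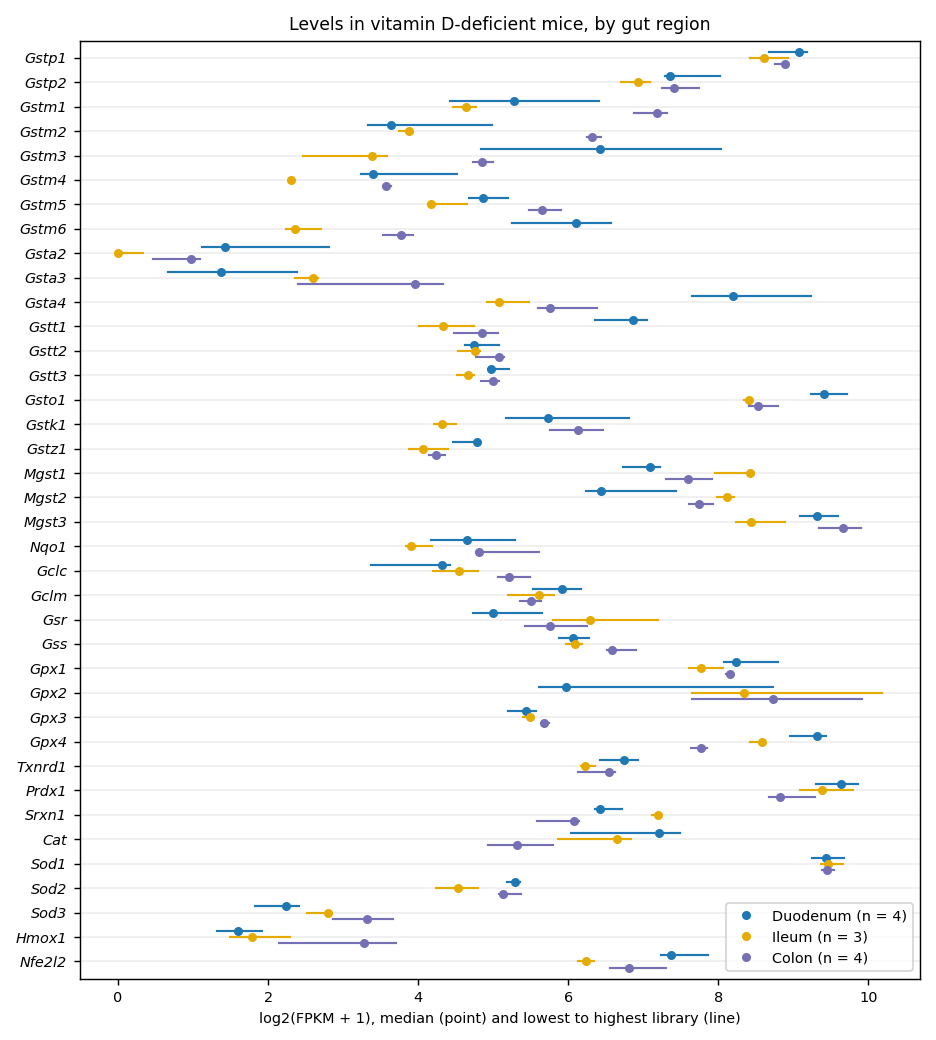
Level of each member in deficient mice on the log2(FPKM + 1) scale in the duodenum (blue), ileum (yellow) and colon (purple), with the median as a point and the lowest to highest library as a line. Gstm6, Gsta4 and Gstt1 are highest in the duodenum, Gstm1 and Gstm2 in the colon, and Sod1 is near the same level in each region.

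The 6 mu class genes sit together over 149 kb of chromosome 3, chr3:107698739-107847812 on NCBIM37, but did not share the same order of duodenum and colon. Under all 3 scalings Gstm6 stood higher in the duodenum and Gstm2 higher in the colon. The rest did not stand apart between these regions under all 3 scalings. Gstm6 was at 93.7, 69.0, 66.1 and 37.0 FPKM in deficient duodenum, 5.50, 4.13 and 3.74 FPKM in ileum, and 10.6, 14.3, 13.4 and 12.0 FPKM in colon. Its duodenal median was 16.3 times the ileal and 5.31 times the colonic one, with no overlap under any of the 3 scalings. Gstm3 was at 263, 101, 71.8 and 27.6 FPKM in deficient duodenum, 11, 9.42 and 4.53 FPKM in ileum, and 27.3, 30.9, 25.5 and 28.3 FPKM in colon. Gstm1 ran the other way, at 84.1, 42.2, 34.1 and 20.5 FPKM in duodenum, 26.3, 21.1 and 23.9 FPKM in ileum, and 117, 158, 151 and 137 FPKM in colon. Its colonic median was 3.78 times the duodenal one on the deposited scale, but the libraries overlapped with median-ratio factors. Gstm2 was at 30.7, 10.6, 12.3 and 9.05 FPKM in duodenum, 13.6, 13.7 and 12.4 FPKM in ileum, and 78.5, 79.4, 85.7 and 74.9 FPKM in colon, above the duodenum under all 3 scalings. Gstm4 and Gstm5 were lowest in the ileum (medians in duodenum, ileum and colon of 9.54, 3.96 and 10.8 FPKM for Gstm4 and 28.0, 17.0 and 49.8 FPKM for Gstm5). All 6 lay below the colon in the ileum under the 3 scalings. Of the 50-base words of Gstm3 and Gstm1, 15.3% and 12.7% occur in other genes, and the annotated spans of Gstm3 and Gstm6 overlap by 1417 bases on the same strand, so their reads may be exchanged to that extent.

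**Figure D4:**
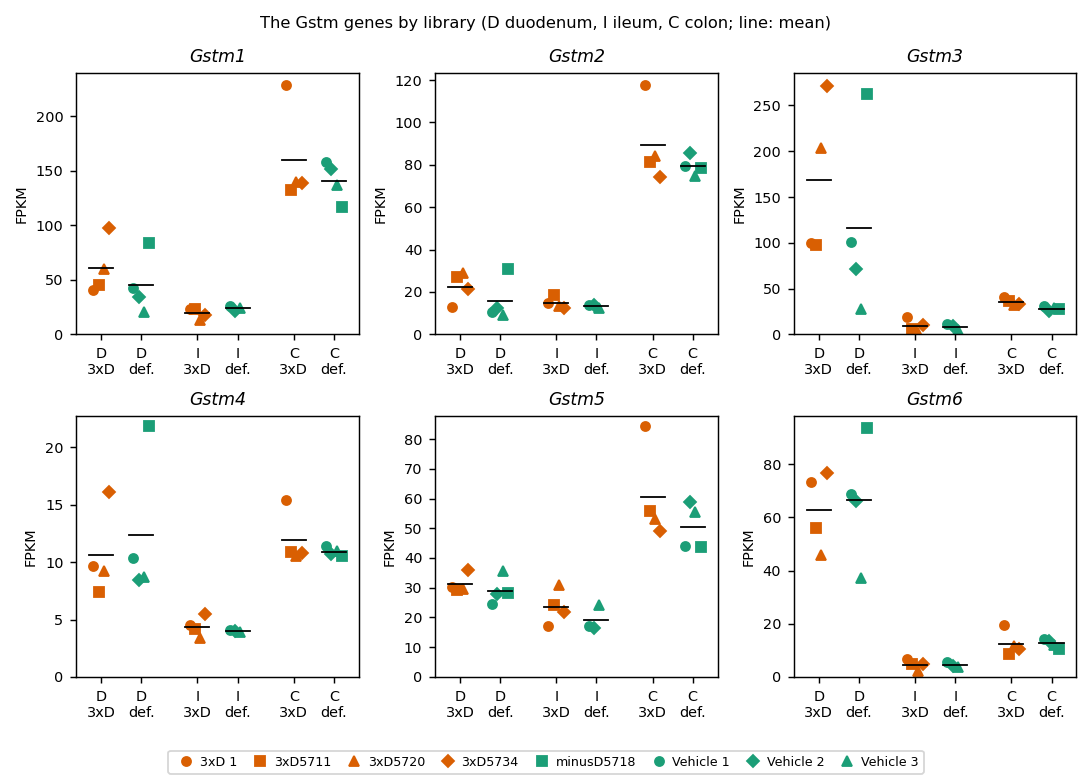
FPKM of the 6 mu class genes in each library, by region and group, with 3xD in orange left of deficient in green and the mean as a line. Gstm3 and Gstm6 are highest in the duodenum, and Gstm1, Gstm2 and Gstm5 in the colon.

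Among the other transferases, Gsta4 was at 601, 296, 287 and 199 FPKM in deficient duodenum, 32.8, 43.5 and 29.1 FPKM in ileum, and 55.1, 47.3, 51.1 and 82.6 FPKM in colon. The duodenal median was 8.87 times the ileal and 5.49 times the colonic one, under all 3 scalings without overlap. Gstt1 was at 132, 108, 124 and 80.9 FPKM in duodenum, 19.1, 25.8 and 15.1 FPKM in ileum, and 28.1, 27.8, 32.6 and 21.3 FPKM in colon, 6.09 and 4.16 times higher in the duodenum by medians. Gsto1, the omega class enzyme that acts as a thiol transferase, was at 604 to 841 FPKM in duodenum, 324 to 342 FPKM in ileum and 338 to 445 FPKM in colon. Gsta2 had the lowest median of all members in the ileum and colon. It was at 1.16 to 6.04 FPKM in duodenum and 0.386 to 1.13 FPKM in colon, and was listed at 0 in both Vehicle 1 and Vehicle 2 ileum. Of its transcript words 48.3% occur in other genes, mostly in Gsta1. Gsta3 was at 4.22, 1.01, 2.31 and 0.580 FPKM in duodenum, 5.33, 5.05 and 4.14 FPKM in ileum, and 4.26, 12.4, 17.1 and 19.1 FPKM in colon. Its colonic median was 8.90 times the duodenal one, but libraries overlapped with median-ratio factors.

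The microsomal enzymes, which belong to the membrane-bound MAPEG family, had their own order. Mgst2, which can also make leukotriene C4, was at 173, 74.6, 76.0 and 96.0 FPKM in deficient duodenum, 277, 296 and 251 FPKM in ileum, and 223, 194, 203 and 242 FPKM in colon. Its ileal median was 3.22 times the duodenal one. Mgst1 was at 148, 129, 105 and 143 FPKM in duodenum, 343, 249 and 356 FPKM in ileum, and 157, 203, 184 and 241 FPKM in colon, with an ileal median 2.52 times the duodenal. For both genes the duodenum lay below the ileum under all 3 scalings. Mgst3 had the highest median of all members in the colon, with 653, 542, 619.8 and 773 FPKM in duodenum, 346, 301 and 472 FPKM in ileum and 957, 760.3, 651 and 858 FPKM in colon. Gstk1 was at 112, 50.3, 54.4 and 35.0 FPKM in deficient duodenum, 17.6, 19.0 and 21.6 FPKM in ileum and 86.9, 58.2, 53.3 and 82.7 FPKM in colon, so that the ileum was lowest. Gstt2 and Gstt3, the other theta class genes, were at 23.8 to 32.9 and 29.6 to 36.0 FPKM in deficient duodenum, 22.0 to 27.2 and 21.9 to 25.9 FPKM in ileum, and 26.2 to 34.2 and 27.5 to 32.6 FPKM in colon. Gstz1, the zeta class enzyme of tyrosine breakdown, was at 21.0 to 26.9 FPKM in duodenum, 13.7 to 20.01 FPKM in ileum and 16.7 to 19.5 FPKM in colon.

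The peroxide-removing enzymes divided as well. Gpx4, which protects membranes from lipid peroxidation, stepped down along the gut, at 622, 498, 692 and 653 FPKM in deficient duodenum, 343, 392 and 383 FPKM in ileum, and 225, 210.5, 197 and 229 FPKM in colon. Neither neighbouring pair overlapped under any of the 3 scalings. Cat, catalase of the peroxisome, was at 179, 145, 148 and 64.8 FPKM in duodenum, 114, 99.7 and 57.1 FPKM in ileum, and 54.5, 40.9, 36.7 and 29.6 FPKM in colon. Duodenum and ileum overlapped, and the duodenum lay above the colon under all 3 scalings. Srxn1, which repairs over-oxidized peroxiredoxins, peaked in the ileum, with 87.3, 80.9, 82.8 and 105 FPKM in duodenum, 146, 137 and 146 FPKM in ileum and 69.9, 67.4, 46.8 and 65.7 FPKM in colon. Prdx1, its substrate, had the highest median of all members in the duodenum, with 903, 629, 701 and 929 FPKM there, 668, 545 and 889 FPKM in ileum and 486, 408, 419.9 and 623 FPKM in colon. Gpx1, the widespread cytosolic peroxidase, was at 268 to 442 FPKM in duodenum, 195 to 268 FPKM in ileum and 274 to 292 FPKM in colon. Txnrd1, the cytosolic thioredoxin reductase, was at 85.2 to 121 FPKM in duodenum, 71.1 to 81.2 FPKM in ileum and 69.2 to 97.7 FPKM in colon. Gss, the second enzyme of glutathione synthesis, was at 57.7 to 76.6 FPKM in duodenum, 62.0 to 71.7 FPKM in ileum and 90.6 to 119 FPKM in colon.

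Sod1, the cytosolic copper and zinc dismutase, had the highest median of all members in the ileum. It stood at 707, 611, 684 and 816 FPKM in deficient duodenum, 660.2, 702 and 809 FPKM in ileum, and 744, 689.9, 664 and 701 FPKM in colon. These ranges overlapped as deposited, while the ileum lay below the colon after rescaling and above it with median-ratio factors. Sod2, the mitochondrial manganese enzyme, was at 35.2 to 39.9 FPKM in duodenum, 17.8 to 26.7 FPKM in ileum and 32.8 to 40.3 FPKM in colon. Sod3, the secreted one, was at 2.55 to 4.30 FPKM in duodenum, 4.71 to 6.20 FPKM in ileum and 6.29 to 11.7 FPKM in colon. Summed smooth muscle markers in these deficient libraries were at 143 to 296, 687 to 902 and 1261 to 2958 FPKM in the same order. The part of muscle content in the Sod3 levels was not tested. Nfe2l2 was highest in the duodenum, at 150.0 to 231 FPKM, with 69.4 to 80.0 FPKM in ileum and 93.4 to 156 FPKM in colon. Hmox1 was scarce, at 1.5 to 2.77 FPKM in duodenum, 1.82 to 3.88 FPKM in ileum and 3.41 to 12.0 FPKM in colon. Nqo1 was at 17.1 to 38 FPKM in duodenum, 13.3 to 17.2 FPKM in ileum and 26.4 to 48.0 FPKM in colon, and Gclc at 9.39 to 20.4, 17.3 to 26.7 and 32.4 to 43.8 FPKM in the same order.

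The members also varied between libraries of 1 group, and some did so in the same libraries along the gut. Gpx2, the gut epithelial glutathione peroxidase that is strongest in crypts, was at 72.6, 70.9, 560.1 and 111 FPKM in 3xD duodenum, against 51.4, 47.9, 74.0 and 422 FPKM in deficient duodenum. In the ileum it was at 314, 478, 1357 and 395 FPKM in 3xD mice, against 325, 199.98 and 1164 FPKM in deficient mice. In the colon it was at 531, 284, 391 and 257 FPKM in 3xD mice, against 199, 441, 404 and 970.0 FPKM in deficient mice. Libraries 3xD5720 and Vehicle 3 were thus the high pair in the duodenum and ileum, and Vehicle 3 the highest in the colon, where 3xD5720 lay within the range of the rest. Gsr, which regenerates reduced glutathione, was also highest in these libraries of the duodenum (58.5 FPKM in 3xD5720 and 49.2 FPKM in Vehicle 3, against 25.6 to 35.2 FPKM) and ileum (135 and 145 FPKM, against 54.7 to 89.7 FPKM). The enterocyte gene Lct was lowest in the same 2 libraries in the duodenum, at 118 FPKM in 3xD5720 and 103 FPKM in Vehicle 3 against 242 to 465 FPKM, and in the ileum, at 5.06 and 19.5 FPKM against 83.4 to 158.9 FPKM. Lct was named after its values were seen, and the sum of the 5 enterocyte markers did not follow it throughout. That sum was lowest in these libraries in the duodenum (15031 FPKM in 3xD5720 and 10699.5 FPKM in Vehicle 3, against 15340 to 20224 FPKM), whereas in the ileum it was lowest in 3xD5720 (4356 FPKM) and Vehicle 3, at 12007 FPKM, lay within the 10508 to 17813 FPKM of the others. The part of cell makeup in the Gpx2 and Gsr values was not tested.

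**Figure D5:**
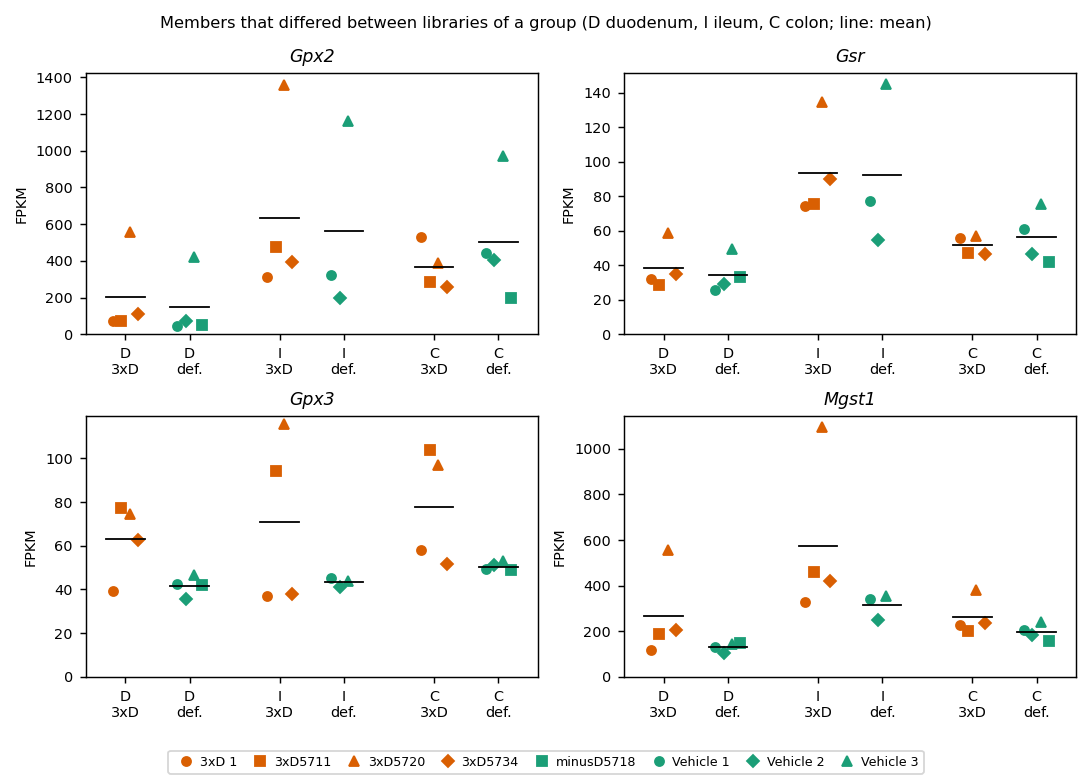
FPKM of Gpx2, Gsr, Gpx3 and Mgst1 in each library, by region and group, with 3xD in orange left of deficient in green, 1 marker shape per library within a group and the mean as a line. The triangles (3xD5720 and Vehicle 3) are high for Gpx2 and Gsr in the duodenum and ileum, and 3xD5720 is highest for Mgst1 in each region.

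Mgst1 and Hmox1 were highest in 3xD5720 in all 3 tissues. For Mgst1 that library had 557 FPKM in duodenum, 1095 FPKM in ileum and 379.7 FPKM in colon, where the other 3xD libraries had 117 to 205, 328 to 458 and 199 to 236 FPKM and the deficient ones 105 to 148, 249 to 356 and 157 to 241 FPKM. For Hmox1 it had 9.19, 13.0 and 21.7 FPKM. In the ileum, 3xD5720 was the highest library for 6 of the 38 members, beside 27.1% of all genes, and the lowest for 24, also beside 27.1%. Among the 24 were Gsta4 at 5.76 FPKM, Nfe2l2 at 47.5 FPKM, Gpx4 at 187 FPKM and Gclm at 34.02 FPKM. The acute-phase gene Saa3 was at 527 FPKM in that library and at most 18.5 FPKM in the others, and its summed ileum markers were at 2427 FPKM against 5780 to 11033 FPKM. The part of these in the members' values was not tested.

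The 2 ways of numbering separated some members. In the duodenum the 4-digit libraries lay wholly apart from the serial ones for 7 of 38 members, beside 7.44% of all genes. The 4-digit libraries were the higher ones for all 7 (Gstm1, Gstm2, Gsta3, Gstk1, Mgst1, Mgst2, Sod2). Shares of all genes in this paragraph pool both directions, and shares by direction were not computed. The stomach markers given above were 6222 FPKM and more in these same libraries and at most 214 FPKM in the serial ones, and their part in the difference was not tested. In the ileum 4 of 37 members lay apart (Mgst1 and Hmox1 higher in the 4-digit libraries, Gsta4 and Gss lower), beside 14.8%, and in the colon 3 of 38 (Cat higher, Gstm6 and Gpx2 lower), beside 13.3%.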

How the data were processed

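Poly(A) RNA of mouse duodenum, ileum and colon was sequenced, and per the labels' protocols the mapping used CLC Genomics Workbench. The submitters' processing notes also name kallisto 0.45.0, DESeq 1.14.0, DESeq2 and mm9, with no role given. The values the authors deposited are FPKM per gene symbol, 1 column per library, 0 columns unused. One ileum table with 8 libraries repeats the duodenum (171528 of 171528 values equal). The ileum was therefore read from the table with 7 libraries, which departs from a plan of 4 against 4. Vehicle columns were taken as the minusD group because the tables hold no other group. Whole reads behind the FPKM steps (tolerance 1e-04) were sought for genes with a value in at least 4 libraries of a tissue. They were recovered for 82.4% of those genes and for 34, 33 and 34 members in the duodenum, ileum and colon. The depth given is the sum over the recovered genes. Whether libraries came from separate mice is not stated, so p-values measure the spread between these libraries.

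limma 3.58.1 in R 4.3.3 (lmFit, eBayes with trend, two-sided) was fitted per tissue to log2(FPKM + 1) over genes with 1 FPKM in 3 libraries, and tested on simulated data. Fold changes are on that scale and understate low genes. Response differences came from 1 fit of 6 group means. Regions were described by non-overlap only. Values per library are given for members by a rule: the 3 smallest treatment p per tissue, the 3 smallest response-difference p, the 3 largest region ratios in each direction, the highest member of each region and representatives of each role. Gstp2, Gstm4 and Gstm5 were given beside them and named after their values were seen. The members and lists were chosen with earlier results of these data known. Alternatives were pseudocounts 0.1 and 0.5, other filters, rescaling, median-ratio factors, quantile normalization, the numbering as covariate, array weights, voom on recovered reads and each library left out. Positions are from gencode on NCBIM37, promoters from RefSeq on GRCm38.p6, and 50-base words from gencode transcripts. Intervals are at 95%.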

Additional observations from a re-analysis of the deposited data

Results flagged for a closer look

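A single library stood far from the others of its group in 13 of the 145 groups of 4 libraries examined over 29 members. The cutoff flags about 1 in 20 groups of independent, normally distributed values. Here the groups share libraries and the members were partly chosen by their values, so that rate is no measure of chance. The share of flagged groups over all genes was not computed. No flagged value was weighed for a cause. In ileum of 3xD mice, library 3xD5720 was the outlying one for Mgst1 (1095 FPKM, others 328 to 458), Gpx2 (1357, others 314 to 478), Gclm (34.02, others 59.5 to 62.6) and Nfe2l2 (47.52, others 88.6 to 93.8). In 3xD duodenum, Gpx2 was at 560.1 FPKM in 3xD5720 (others 70.9 to 111) and Mgst3 at 841.5 FPKM in 3xD5734 (others 651 to 680.2). In deficient duodenum, Vehicle 3 was outlying for Gpx2 (422.5 FPKM, others 47.9 to 74.0) and Gclc (9.39, others 18.9 to 20.4), and minusD5718 for Gstm2 (30.68, others 9.05 to 12.3). In 3xD colon, library 3xD 1 was outlying for Gstm1 (228.9 FPKM, others 132 to 139) and Gpx4 (316.5, others 203 to 212). In deficient colon, Nqo1 was at 47.98 FPKM in Vehicle 3 (others 26.4 to 27.5). Gsta2 was at 0.7939 FPKM in 3xD5711 ileum and listed at 0 in the other 3xD libraries.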

How the results depend on the processing

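No alternative made a member pass the treatment or response-difference threshold, each library left out included (0 to 0 members called in each of the 6 tests), and the log2 differences of the 3 members with the smallest p in each tissue, 9 in all, kept their sign under the alternatives run. Within the serial libraries alone, where 3xD 1 is the only 3xD library, the sign turned for Gpx3 in the duodenum (-0.08, against 0.55). Over all alternatives the log2 differences ran from 0.41 to 0.68 for Gstp1 in the duodenum (lowest adjusted p 0.155, with array weights) and from 0.45 to 0.77 in the colon (0.0776, with array weights), from 0.52 to 0.83 for Gsta4 in the colon, and from 0.12 to 1.51 for Hmox1 and 0.07 to 0.93 for Mgst1 in the ileum, both lowest with the numbering as covariate, which in the ileum leaves 3xD 1 alone against the deficient libraries. With each library left out in turn, 3xD5720 included, they ran from 0.44 to 0.68 for Gstp1 in the duodenum, 0.48 to 0.67 for Gstp1, 0.55 to 0.83 for Gsta4 and 0.27 to 0.38 for Gstm3 in the colon, and 0.41 to 0.65 for Gstk1, 0.90 to 1.51 for Hmox1 and 0.35 to 0.93 for Mgst1 in the ileum. Counts of members whose deficient libraries do not overlap were 14 for duodenum against ileum, 12 for duodenum against colon and 14 for ileum against colon when libraries of both groups were pooled, against 23, 21 and 25, where more libraries have to be apart. The pooled counts stand beside 15.5%, 37.2% and 22.2% of all genes. With 1 library left out they ran from 23 to 28, 21 to 27 and 25 to 29 (36.4 to 46.6%, 60.1 to 66.4% and 50.6 to 60.3% of all genes), and for 3xD from 21 to 25, 15 to 20 and 21 to 24 (34.6 to 39.5%, 51.1 to 63.4% and 37.2 to 46.3%). Members split by the numbering in the colon were 6 after rescaling every library to the same sum, against 3 (9.63% of all genes, against 13.3%), and the cause was not tested. No paired analysis was possible within a tissue because the columns carry no replicate numbers of the labels. Across tissues, libraries of the same number deviated together by a correlation over 0.1 in 7 of 7 pairs for duodenum and ileum, 7 of 8 for duodenum and colon and 6 of 7 for ileum and colon, and with that number as a replicate block 0 members were called for response differences. Genes at a few FPKM, such as Gsta2 with 2 to 64 recovered reads where they were recovered, limit what could be detected.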
